A study of Mus musculus with 16 samples.

Results

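The circadian clock genes described here were Per1, Per2, Per3, Cry1, Cry2, Arntl, Clock, Nr1d1, Nr1d2 and Dbp. These 10 genes were found once each by symbol among the 17986 genes that had a value in all libraries, and all 10 passed the filter on low values. RNA had been sequenced from CA1, a subfield of the hippocampus, cut out by laser from frozen 8 µm brain sections of male C57Bl6 mice aged 3 to 6 months, kept under 12 h of light and 12 h of dark. The study compared wild type mice with Neil3-/- mice, which are deficient in NEIL3, a DNA glycosylase that takes part in base excision repair. Home cage mice had no intervention (2 libraries of each genotype label). Exploration mice (3 libraries of each label) were trained in an open field of 50 cm sides with a cue card and food cues, in 20 min sessions each day over 1 week, and tissue was taken 20 min after the final one. The time of day at which the mice were killed is not given in the sources used here. The part of Neil3 that the mutation removes is not given either.

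Neil3 expression went against the genotype labels. Both home cage libraries labelled wild type listed it at 0, and the 3 exploration libraries with that label at 0, 0 and 0.05 FPKM (fragments per kilobase of transcript, scaled to the depth of the library). It stood at 13.77 and 15.22 FPKM in the home cage libraries labelled Neil3-/- and at 15.13, 11.85 and 8.35 FPKM in the exploration libraries with that label. The groups are therefore named WT-labelled and KO-labelled, and a direction between them is that of the labels. FPKM summed to 405718 to 466701 per library, 11114 to 11623 genes reached 1 FPKM, and the estimated depth was 18700000 to 20000000 fragments. The values stood in 2 blocks of the deposited table, 1 for each environment, so environment and block cannot be told apart. CA1 pyramidal markers summed to 640.8 to 780.1 FPKM and dentate granule cell markers to 0.66 to 1.34 FPKM over the 10 libraries.

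The mammalian clock is a feedback loop of transcription. ARNTL (also called BMAL1) pairs with CLOCK and activates genes through E-boxes, among them the Per and Cry genes, whose proteins in turn repress the pair. The same pair activates Nr1d1 and Nr1d2, whose products, the REV-ERB receptors, repress Arntl, and Dbp, whose product activates further genes through D-boxes. In most tissues Arntl is therefore high when Dbp and the REV-ERB genes are low. The hippocampus has such rhythms, so the level of a clock gene in a tissue sample depends on the hour at which it was taken. Per1 is also known as a gene that neuronal activity and glucocorticoids induce.

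Motifs of this loop, or the core letters of one, stood in the promoters of several of these genes. RefSeq windows on GRCm38.p6, the build the submitters' processing notes name, held 250 bases before and 50 after each transcript start, and 9 of the 10 genes had one (Per2 was the missing entry). On either strand, the E-box CACGTG was in windows of Per1 and Cry1. It was in 7.15% of all 32851 windows and in a window of 8.09% of all genes. The D-box TTATGTAA was in that of Per3, with shares of 0.938% of windows and 1.11% of genes. The core of a REV-ERB site, AGGTCA, was in windows of Per1, Clock, Nr1d2 and Arntl, with shares of 16.3% and 18.1%. Only these core letters were searched, with no flanking bases, so a match is not a full site. The core did not overlap the other motifs in these windows, and that of Arntl lay after the start, from base 32. The windows of Cry2, Nr1d1 and Dbp held none of these motifs. Ciart, a further clock repressor, had 3 E-boxes within the 116 bases before its start. Of the other clock genes listed below, Bhlhe41, Cipc and Tef also held an E-box in a window. With exploration averaged over the labels Bhlhe41 rose, Cipc fell and Tef was not called. No link between a motif and a direction was tested. All these matches describe the letters and show no binding. The stretches below, 5′ to 3′ on the strand of the gene, were chosen because they hold the E-boxes of a gene that rose (Cry1, Ciart) and of one that did not pass the test (Per1), the paired D-boxes of Per3, and the REV-ERB core of Nr1d2, the gene called in 4 of the 7 comparisons below. Capitals mark the motif.
Per1 (chr11:69098733-69098832, plus strand): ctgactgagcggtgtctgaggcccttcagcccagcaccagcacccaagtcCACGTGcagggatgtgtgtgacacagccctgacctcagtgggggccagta
Cry1 (chr10:85185065-85185164, minus strand): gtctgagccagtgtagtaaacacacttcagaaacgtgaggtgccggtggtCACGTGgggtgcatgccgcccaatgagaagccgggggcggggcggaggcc
Ciart (chr3:95882259-95882358, minus strand): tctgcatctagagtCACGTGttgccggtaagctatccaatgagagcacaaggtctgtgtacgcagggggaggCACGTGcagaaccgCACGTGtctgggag
Per3 (chr4:151044791-151044890, minus strand): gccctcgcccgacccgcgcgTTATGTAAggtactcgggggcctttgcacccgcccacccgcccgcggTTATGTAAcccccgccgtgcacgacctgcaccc
Nr1d2 (chr14:18239134-18239233, minus strand): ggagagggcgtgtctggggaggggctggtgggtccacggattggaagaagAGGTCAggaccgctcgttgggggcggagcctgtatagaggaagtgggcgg

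All 10 genes were expressed in CA1. Averaged over the 10 libraries, the level per transcript length was highest for Dbp (46.0 FPKM), followed by Cry2 (32.9), Nr1d1 (30.4), Nr1d2 (23.7), Per1 (18.6), Arntl (16.4), Per2 (9.43), Clock (8.83), Cry1 (6.16) and Per3 (3.03). The ranges of every neighbouring pair in that order overlapped over the libraries. The spread over the libraries differed between the genes. The highest library was 3.63 times the lowest for Dbp, 2.51 times for Per3 and 2.21 times for Arntl, against 1.35 times for Cry2, 1.38 times for Per2 and 1.39 times for Per1. Counting error was smaller than these ranges, at most 6.9% for Per3, the lowest gene, with an estimated 210 to 528 fragments per library, and at most 3.9% for Dbp.

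**Figure D1:**
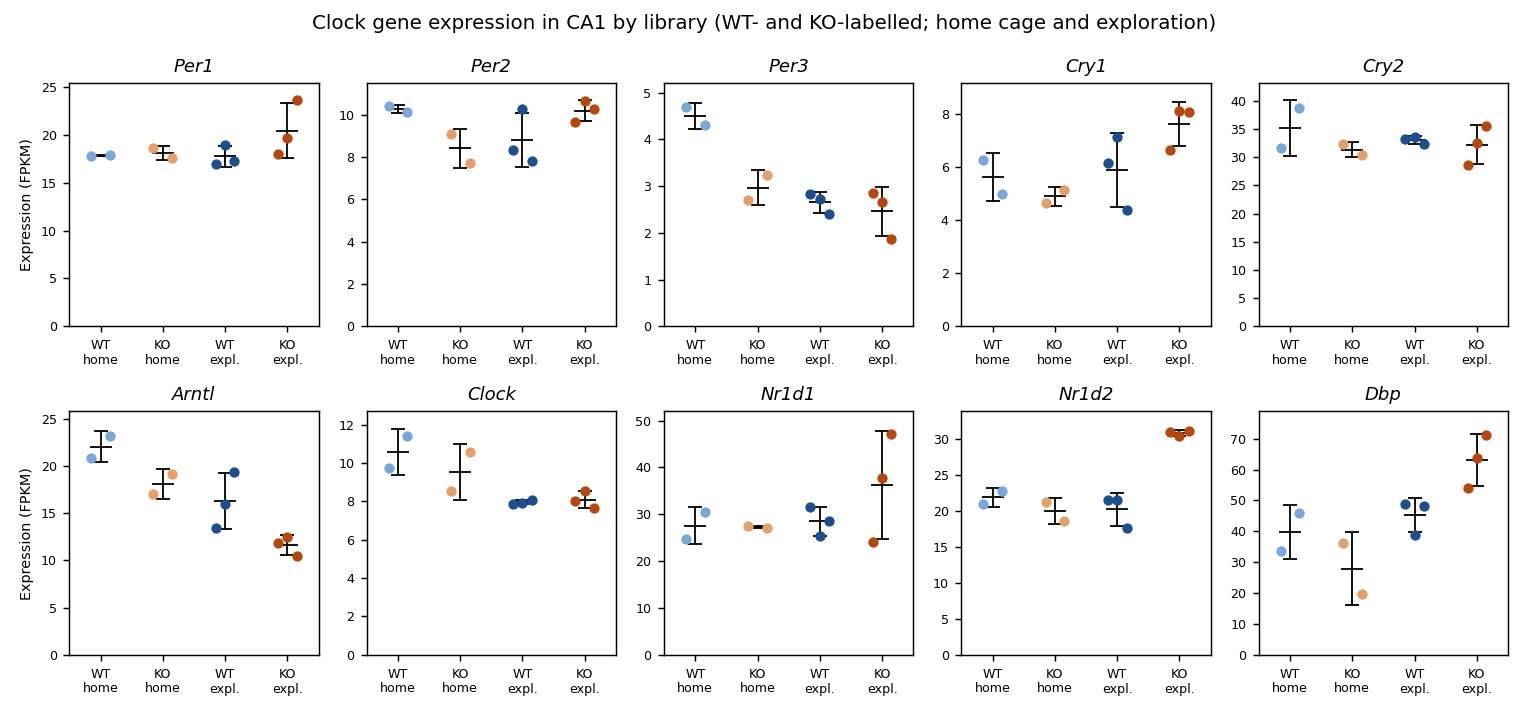
Expression of the 10 clock genes in FPKM on linear axes from 0, by genotype label and environment; points are libraries, and bars are the mean and SD (n = 2 for home cage, n = 3 for exploration). Nr1d2 sits between 30.36 and 31.14 FPKM in the KO-labelled exploration libraries and at or below 22.81 FPKM in all others, while Arntl is lowest in the same 3 libraries. The share of all tested genes with such a rank of these libraries was not computed.

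With exploration in the KO-labelled mice, Dbp, Nr1d2 and Cry1 rose, Arntl fell, and the other 6 genes did not pass the test. These 4 of 10 genes stand beside 28.6% of all 11892 genes tested that were called in the same comparison, a share near that of the clock genes. Of all tested genes 12.0% rose and 16.6% fell. The median log2 difference over the 10 genes was 0.21, against -0.04 over all tested genes. Calls are adjusted p-values under 0.05 from limma on log2(FPKM + 1), with Benjamini-Hochberg adjustment over all tested genes. All log2 differences and folds given here are therefore of FPKM + 1. Such folds are closer to no change than ratios of FPKM, most so for low genes. The libraries of the 2 groups did not overlap for 5 of the 10 genes (Cry1, Dbp, Per2, Nr1d2 and Arntl), and 52.1% of all tested genes were separated in this way. For some genes below, the KO-labelled exploration libraries were the highest or the lowest of all. The share of all tested genes with such a rank was not computed, so these statements have no background.

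Exploration in the WT-labelled mice gave 1 called clock gene of 10, Per3, which fell, beside 6.31% of all tested genes (2.02% rose and 4.29% fell). The libraries did not overlap for Arntl, Clock and Per3, each lower after exploration, and 47.8% of tested genes had no overlap. Averaged over both labels, 5 of 10 were called, Dbp and Nr1d2 rising and Arntl, Clock and Per3 falling, beside 31.9% of all tested genes (12.6% rose and 19.2% fell). The averaged call of Nr1d2 was lost on leaving out the first WT-labelled library of either environment or the second KO-labelled home cage library, and that of Per3 on leaving out the last of these. For none of the 10 did the 4 home cage libraries separate fully from the 6 exploration libraries, which 16.9% of tested genes did.

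Between the genotype labels in the home cage, 0 of 10 clock genes were called by limma, beside 3.57% of all tested genes (2.12% higher and 1.45% lower in KO-labelled libraries). Per3 and Dbp had an unadjusted p under 0.05, which made 2 genes. Home cage libraries of the labels did not overlap for Arntl, Per2 and Per3, all lower in the KO-labelled ones, with 46.9% of tested genes not overlapping. After exploration 1 of 10 was called, Nr1d2, higher in KO-labelled libraries, beside 0.597% of all tested genes (0.193% higher and 0.404% lower). There the libraries did not overlap for Nr1d2 and Dbp, both higher, and Arntl, lower, with a share of 24.9% of tested genes. Averaged over the environments 0 of 10 were called by limma, beside 2.13% of tested genes (0.774% higher and 1.35% lower), and 3 (Arntl, Nr1d2 and Per3) had an unadjusted p under 0.05. The difference between the labels in the response to exploration was called for 1 of 10, Nr1d2, beside 0.875% of all tested genes (0.362% with the larger value in KO-labelled and 0.513% in WT-labelled mice). An unadjusted p under 0.05 was found for 4 genes after exploration (Arntl, Cry1, Dbp and Nr1d2). For the difference in response it was found for 4 (Cry1, Dbp, Nr1d2 and Per2). No share of all tested genes at the unadjusted threshold was computed, so the unadjusted counts have no background. The difference between the labels within an environment is taken between libraries of 1 block, but its error comes from the spread in all 10 libraries of both blocks. In the home cage Per3 was called, with an adjusted p of 0.0467 by limma, when the third KO-labelled exploration library was left out. The 2 genotype comparisons share no library, but each environment comparison shares its libraries with them.

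**Figure D2:**
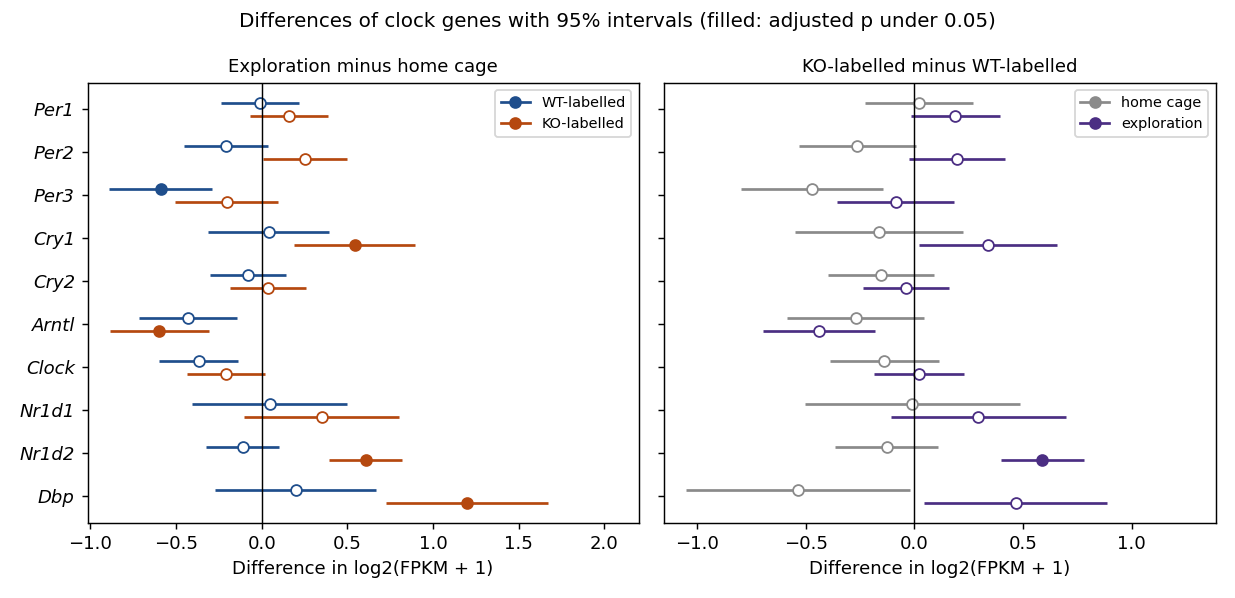
Difference in log2(FPKM + 1) of each clock gene, exploration minus home cage (left) and KO-labelled minus WT-labelled (right); points are limma estimates over 10 libraries, lines their 95% intervals, and filled points have an adjusted p under 0.05. Dbp in the KO-labelled mice has the largest estimate of the 10 genes, 1.20, and Per3 is the filled point of the WT-labelled mice.

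Averaged over the labels, both activators fell with exploration. Arntl was 20.87 and 23.20 FPKM in the WT-labelled home cage libraries and 17 and 19.19 FPKM in the KO-labelled ones. The exploration libraries held 13.45, 15.96 and 19.37 FPKM with the WT label and 11.89, 12.50 and 10.50 FPKM with the KO label. The 3 KO-labelled exploration libraries were the lowest of all 10, and 1 WT-labelled exploration library lay within the home cage range. Arntl fell by 0.60 on the log2 scale in the KO-labelled mice (SE 0.13, 0.661-fold, adjusted p = 0.00783 by limma). Its difference in the WT-labelled mice was -0.43 (SE 0.13, adjusted p = 0.0755 by limma). The fall averaged over both labels was 0.51 (SE 0.093, adjusted p = 0.00261 by limma). After exploration the KO-labelled libraries differed from the WT-labelled by -0.44 (SE 0.12), with an adjusted p of 0.109 by limma. The difference in response between the labels was -0.17, with a 95% interval from -0.57 to 0.24. Without the second KO-labelled home cage library the Arntl difference of the KO-labelled mice was -0.51, with an adjusted p of 0.107 by limma, and without the third WT-labelled exploration library that of the WT-labelled mice was -0.56, with an adjusted p of 0.035.

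Clock encodes the partner of ARNTL and varied less. It was 9.74 and 11.42 FPKM in WT-labelled and 8.52 and 10.57 FPKM in KO-labelled home cage libraries, and 7.87, 7.91 and 8.06 FPKM in WT-labelled and 8.03, 8.55 and 7.67 FPKM in KO-labelled exploration libraries. All WT-labelled exploration libraries lay below both of their home cage counterparts, while the KO-labelled ranges met between 8.52 and 8.55 FPKM. Clock fell by 0.29 on the log2 scale averaged over the labels (SE 0.074, adjusted p = 0.0134 by limma). Taken by label it was not called, with -0.37 (SE 0.10, adjusted p = 0.0604 by limma) in WT-labelled and -0.21 (SE 0.10, adjusted p = 0.152) in KO-labelled mice. The averaged fall was no longer called without the second WT-labelled home cage library or without the second KO-labelled one, where its highest adjusted p was 0.0723 by limma.

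Of the Period genes, which encode repressors of the ARNTL and CLOCK pair, Per3 was called. It was 4.69 and 4.30 FPKM in the WT-labelled home cage libraries and between 1.87 and 3.23 FPKM in the other 8. KO-labelled home cage libraries held 2.71 and 3.23 FPKM, WT-labelled exploration libraries 2.83, 2.72 and 2.41 FPKM, and KO-labelled exploration libraries 2.86, 2.66 and 1.87 FPKM. The WT-labelled home cage thus stood apart, and the other 3 groups overlapped. Per3 fell by 0.59 on the log2 scale with exploration in the WT-labelled mice (SE 0.14, 0.664-fold in FPKM + 1, adjusted p = 0.0287 by limma). In the home cage its KO-labelled minus WT-labelled difference was -0.47 (SE 0.15, unadjusted p = 0.00878, adjusted p = 0.114 by limma). The WT-labelled fall lost its call in 6 of 17 alternatives, among them each of the 5 that left out a WT-labelled library, where the adjusted p reached 0.169 by limma.

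Per2 was lower in the KO-labelled home cage libraries, at 9.07 and 7.74 FPKM, than in the WT-labelled ones, at 10.40 and 10.12 FPKM. After exploration it was 8.34, 10.26 and 7.82 FPKM in WT-labelled and 9.65, 10.65 and 10.26 FPKM in KO-labelled libraries, which overlapped. Its environment difference was -0.21 on the log2 scale (SE 0.11, adjusted p = 0.301 by limma) in the WT-labelled and 0.25 (SE 0.11, adjusted p = 0.112) in the KO-labelled mice. The difference between these responses was 0.46 (95% interval 0.11 to 0.81, adjusted p = 0.172 by limma).

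Per1, the Period gene best known for fast induction, kept a narrow range. It was 17.78 and 17.87 FPKM in WT-labelled and 18.63 and 17.57 FPKM in KO-labelled home cage libraries, and 17, 18.98 and 17.23 FPKM in WT-labelled exploration libraries. KO-labelled exploration libraries had 18.04, 19.67 and 23.64 FPKM, overlapping their home cage counterparts and the WT-labelled exploration libraries. Its difference with exploration was -0.01 on the log2 scale (95% interval -0.24 to 0.22) in WT-labelled and 0.16 (95% interval -0.07 to 0.39) in KO-labelled mice, and Per1 was called in none of the 7 comparisons. These intervals leave room for changes of up to 0.39 on the log2 scale. Fos, an immediate early gene of neuronal activity, was 16.28 and 2.5 FPKM in WT-labelled and 7.16 and 6.72 FPKM in KO-labelled home cage libraries, and 36.1 to 49.65 FPKM in the 6 exploration libraries, with no overlap. It rose by 2.55 (SE 0.45, adjusted p = 0.00816 by limma; 1.40 to 3.71 over the alternatives) in WT-labelled and by 2.45 (SE 0.45, adjusted p = 0.00369) in KO-labelled mice. Arc, which encodes an activity-regulated synaptic protein, rose by 1.65 (SE 0.32, adjusted p = 0.0127 by limma) in WT-labelled and by 1.69 (SE 0.32, adjusted p = 0.00397) in KO-labelled mice. Of 6 activity genes listed, 5 rose in WT-labelled mice, beside 2.02% of all tested genes, and 6 in KO-labelled mice, beside 12.0%. Without the second WT-labelled home cage library the Arc difference of the WT-labelled mice was 0.93 and was no longer called, and without the second KO-labelled one Fos and Arc were no longer called in the KO-labelled mice. The WT-labelled calls of both were also lost with no filter, and that of Fos with robust empirical Bayes.

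Of 8 glucocorticoid-responsive genes listed, 1 rose and 0 fell with exploration in WT-labelled mice, beside 6.31% of all tested genes called, and 2 rose and 1 fell in KO-labelled mice, beside 28.6%. Averaged over the labels 4 rose and 1 fell, beside 31.9% of all tested genes called (12.6% rose and 19.2% fell). The list median was 0.18 on the log2 scale, against -0.03 over all tested genes. A positive difference was found for 7 of the 8, and the share of all tested genes with one was not computed. The genes named from this list were fixed as Fkbp5 and Sgk1, which were not among those called for environment. Fkbp5, a co-chaperone of the glucocorticoid receptor, was 14.41 and 12.25 FPKM in WT-labelled and 15.62 and 18.97 FPKM in KO-labelled home cage libraries, and 13.78, 14.50 and 11.84 FPKM in WT-labelled and 16.11, 17.37 and 18.38 FPKM in KO-labelled exploration libraries. All 5 KO-labelled libraries were above all 5 WT-labelled ones. The share of all tested genes that separated the labels in this way over both environments was not computed. Within an environment it was 46.9% in the home cage and 24.9% after exploration. Averaged over environments it was 0.35 higher on the log2 scale in KO-labelled mice (SE 0.081, adjusted p = 0.0481 by limma), and its environment difference was 0.00 in both labels. In the same comparison 2 of 5 astrocyte markers were higher in KO-labelled mice, beside 0.774% of all tested genes. The median of these markers was 0.37 on the log2 scale against -0.01 over all tested genes, and their part in the Fkbp5 difference was not tested. The averaged call held in 6 of 17 alternatives, and on leaving out a library only without the first KO-labelled library of either environment. Sgk1, a kinase gene induced by glucocorticoids, was called in none of the 7 comparisons, with 15.71 to 23.04 FPKM over the libraries.

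Of the cryptochrome genes, whose proteins repress together with the PER proteins, Cry1 was called and Cry2 was not. Cry1 was 6.27 and 4.99 FPKM in WT-labelled and 4.64 and 5.15 FPKM in KO-labelled home cage libraries. After exploration it was 6.15, 7.12 and 4.39 FPKM in WT-labelled and 6.65, 8.10 and 8.09 FPKM in KO-labelled libraries. The KO-labelled groups did not overlap, and the WT-labelled groups did. Cry1 rose by 0.54 on the log2 scale in KO-labelled mice (SE 0.16, 1.46-fold in FPKM + 1, adjusted p = 0.028 by limma). In WT-labelled mice the difference was 0.04 (SE 0.16, adjusted p = 0.909 by limma). The difference between these responses was 0.50 (95% interval 0.00 to 1.00) and was not called, with an adjusted p of 0.309 by limma. The rise lost its call in 5 of 18 alternatives, with no filter on low values and on leaving out either KO-labelled home cage library or the second or the third KO-labelled exploration library, and its adjusted p then reached 0.123.

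Cry2 had the smallest spread of the 10 genes, from 28.67 to 38.69 FPKM. WT-labelled home cage libraries were at 31.64 and 38.69 FPKM, KO-labelled ones at 32.27 and 30.39 FPKM, WT-labelled exploration libraries at 33.19, 33.55 and 32.30 FPKM and KO-labelled ones at 28.67, 32.52 and 35.49 FPKM. All 4 groups overlapped with at least 1 other, and its environment differences of -0.08 (95% interval -0.30 to 0.14) and 0.03 (95% interval -0.19 to 0.26) on the log2 scale were not called.

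Nr1d2, which encodes REV-ERB beta, gave the clearest difference between the labels. It was 20.92 and 22.81 FPKM in WT-labelled home cage, 21.23 and 18.65 FPKM in KO-labelled home cage and 21.57, 21.55 and 17.59 FPKM in WT-labelled exploration libraries, which all overlapped. KO-labelled exploration libraries had 30.94, 30.36 and 31.14 FPKM, above all 7 others. The share of all tested genes with this group above all others was not computed. Nr1d2 rose by 0.61 on the log2 scale with exploration in KO-labelled mice (SE 0.098, 1.52-fold, adjusted p = 0.00225 by limma), against -0.11 (SE 0.098, adjusted p = 0.537) in WT-labelled mice. After exploration it was 0.59 higher in KO-labelled than in WT-labelled mice (SE 0.088, 1.5-fold, adjusted p = 0.0163 by limma), and in the home cage the difference was -0.13 (95% interval -0.36 to 0.11). The responses of the labels differed by 0.72 (SE 0.14, 95% interval 0.41 to 1.02), with an adjusted p of 0.0496 by limma, just inside the threshold. The rise in KO-labelled mice was called in 18 of 18 alternatives. The difference after exploration was called in 15 of 18, with an adjusted p up to 0.0695, and was lost with no filter and without the third WT-labelled or the second KO-labelled exploration library. The difference in response was called in 6 of 17, with an adjusted p from 0.0222 to 0.223, and on leaving out a library it held only without the first KO-labelled library of either environment.

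Its paralog Nr1d1, which encodes REV-ERB alpha, was not called. It was 24.74 and 30.46 FPKM in WT-labelled and 27.41 and 27.13 FPKM in KO-labelled home cage libraries, and 31.52, 25.26 and 28.67 FPKM in WT-labelled exploration libraries. KO-labelled exploration libraries spread from 24.14 over 37.65 to 47.07 FPKM, so the first of them was the lowest and the third the highest of all 10 libraries. The environment difference in KO-labelled mice was 0.35 on the log2 scale (SE 0.21, 95% interval -0.10 to 0.80, adjusted p = 0.222 by limma). Without the first KO-labelled exploration library it was 0.61 and was called. Nr1d1 lies opposite and partly over Thra on the genome, and the use of strand is not given in the sources used here, so its values may hold reads of that gene.

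Dbp, an output gene that encodes a PAR bZIP transcription factor, had the largest range. It was 33.49 and 45.89 FPKM in WT-labelled and 36.26 and 19.64 FPKM in KO-labelled home cage libraries. In the exploration libraries it was 48.72, 38.91 and 48.34 FPKM with the WT label and 54.15, 63.80 and 71.20 FPKM with the KO label. The 3 KO-labelled exploration libraries were the highest of all 10, and the second KO-labelled home cage library was the lowest. Dbp rose by 1.20 on the log2 scale in KO-labelled mice (SE 0.22, 2.3-fold, adjusted p = 0.0034 by limma), against 0.20 (SE 0.22, adjusted p = 0.631) in WT-labelled mice. The difference between these responses was 1.00 (95% interval 0.33 to 1.67, adjusted p = 0.124 by limma). Between the labels it was -0.54 (SE 0.24, adjusted p = 0.254 by limma) in the home cage and 0.47 (SE 0.19, adjusted p = 0.254) after exploration. Without the second KO-labelled home cage library the rise was 0.77, with an adjusted p of 0.0502 by limma. Without the first one, the home cage difference was -0.96 (adjusted p = 0.0304 by limma) and the difference in response 1.43 (adjusted p = 0.0158).

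The ratio of Dbp to Arntl, 2 genes that the loop drives in opposite directions, was computed in each library after their values had been seen and is given as a description. It was 1.60 and 1.98 in WT-labelled home cage libraries and 2.13 and 1.02 in KO-labelled ones. After exploration it was 3.62, 2.44 and 2.5 in WT-labelled and 4.55, 5.10 and 6.78 in KO-labelled libraries. All 6 exploration libraries were above all 4 home cage libraries, and the KO-labelled ones were above the WT-labelled ones. The ratio of Per2 to Arntl did not separate the environments. It was 0.403 to 0.534 in the 4 home cage libraries, 0.62, 0.643 and 0.404 in WT-labelled and 0.812, 0.852 and 0.977 in KO-labelled exploration libraries. The ratio of Ciart to Npas2 was 0.375 to 0.695 in the home cage, 0.815 to 1.12 in WT-labelled and 2.11 to 3.68 in KO-labelled exploration libraries. In KO-labelled mice Ciart had the largest called rise and Npas2 the only called fall of the other clock genes described below. Their ratio therefore follows from those calls and is no separate result. The same holds for Dbp and Arntl, which were called in opposite directions in KO-labelled mice and averaged over the labels. These ratios have no background of their own, and of single genes tested 16.9% separated the environments fully.

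**Figure D3:**
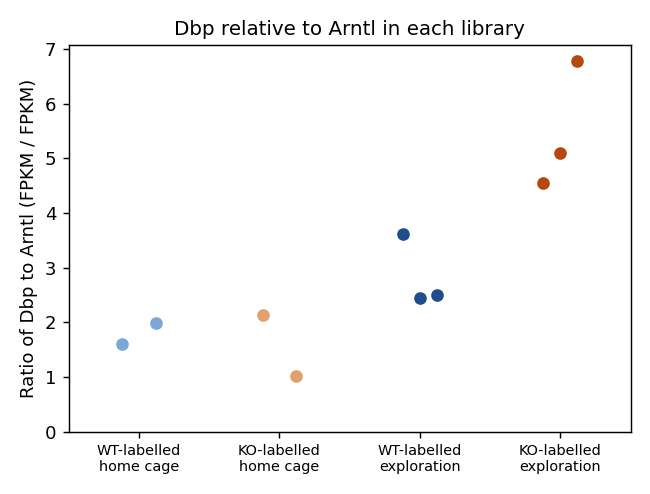
Ratio of Dbp to Arntl (FPKM over FPKM, linear axis from 0) in each of the 10 libraries, 1 point per library. Home cage libraries lie between 1.02 and 2.13, WT-labelled exploration libraries between 2.44 and 3.62 and KO-labelled exploration libraries between 4.55 and 6.78. The ratio follows from the calls of the 2 genes and is no separate result.

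Within groups the relation of these 2 genes was weak. Over the 10 libraries, with log2(FPKM + 1) centred on the group means, Dbp had a Pearson correlation of -0.20 with Arntl. Among the other members those of Dbp ran from -0.65 with Per3 and -0.39 with Clock to 0.54 with Nr1d1 and 0.65 with Cry2. Those of Arntl ran from -0.70 with Nr1d2 and -0.57 with Cry1 to 0.10 with Per3 and 0.55 with Clock. Among 8235 genes with a mean of at least 5 FPKM, those most like Dbp were Rilpl1 (0.952), Arpin (0.949), Txnl4a (0.939), Asphd2 (0.932) and Ten1 (0.928). Those most like Arntl were Ntrk3 (0.958), Nudcd1 (0.929), Zfp672 (0.928), Zfp654 (0.927) and Tars2 (0.927). These 10 points share libraries, and their 4 group means were removed, so the values describe these libraries. The genes most like Dbp and Arntl are the highest of 8235 correlations over few libraries. How high such a maximum lies among unrelated genes was not computed.

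Other genes of the clock were taken as a list of 25, of which 21 passed the filter. With exploration in KO-labelled mice 3 rose (Ciart, Bhlhe41 and Noct) and 1 fell (Npas2), 4 of 21 beside 28.6% of all tested genes. In WT-labelled mice 0 rose or fell by limma, beside 6.31% of all tested genes, with 2 at an unadjusted p under 0.05. The list medians were 0.05 and -0.03 on the log2 scale, against -0.04 and -0.02 over all tested genes. Averaged over the labels 2 rose and 4 fell, 6 of 21 beside 31.9% of all tested genes. The shares of the list were thus not above those of all tested genes in the environment comparisons. Between the labels 0 were called in the home cage, 1 after exploration (Ciart) and 0 averaged, with 4, 11 and 7 at an unadjusted p under 0.05, and the difference in response was called for 1 (Bhlhe41). The shares of all tested genes called were 3.57%, 0.597%, 2.13% and 0.875% in these 4 comparisons. These shares are at the adjusted threshold. The share of all tested genes at an unadjusted p under 0.05 was not computed, so the unadjusted counts have no background.

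Ciart encodes a repressor that binds the ARNTL and CLOCK pair, and its promoter stretch with 3 E-boxes is printed above. It was 4.28 and 4.17 FPKM in WT-labelled and 4.46 and 3.66 FPKM in KO-labelled home cage libraries, and 7.50, 5.10 and 6.18 FPKM in WT-labelled and 9.85, 12.90 and 15.49 FPKM in KO-labelled exploration libraries. All 6 exploration libraries were above all 4 home cage libraries, and the exploration groups of the labels did not overlap. Ciart rose by 1.43 on the log2 scale in KO-labelled mice (SE 0.17, 2.69-fold in FPKM + 1, adjusted p = 0.000951 by limma). After exploration it was 0.91 higher in KO-labelled than in WT-labelled mice (SE 0.15, 1.88-fold, adjusted p = 0.0297 by limma), a call that held in 12 of 18 alternatives with an adjusted p up to 0.115. It was lost with no filter, with only the groups compared, and without the second or the third exploration library of either label. Its counting error was at most 10%, with 91 to 382 fragments estimated per library.

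Bhlhe41 encodes DEC2, a repressor at E-boxes. It was 14.07 and 15 FPKM in WT-labelled and 12.82 and 9.74 FPKM in KO-labelled home cage libraries, and 14.17, 15 and 12.91 FPKM in WT-labelled and 18.04, 19.64 and 18.94 FPKM in KO-labelled exploration libraries. The KO-labelled exploration libraries were the highest, as with Nr1d2. Bhlhe41 rose by 0.71 on the log2 scale in KO-labelled mice (SE 0.11, 1.63-fold, adjusted p = 0.00199 by limma). The difference in response between the labels was 0.75 (95% interval 0.42 to 1.09, adjusted p = 0.0496 by limma), called in 5 of 17 alternatives with an adjusted p from 0.00959 to 0.223. On leaving out a library it held only without the first KO-labelled library of either environment.

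Npas2, a paralog of Clock that can also pair with ARNTL, was 6.16 and 9.12 FPKM in WT-labelled and 10.34 and 9.75 FPKM in KO-labelled home cage libraries. It was 6.70, 6.26 and 6.23 FPKM in WT-labelled and 4.66, 5.57 and 4.21 FPKM in KO-labelled exploration libraries. The KO-labelled exploration libraries were the lowest of all 10. Npas2 fell by 0.93 on the log2 scale in KO-labelled mice (SE 0.14, 0.524-fold in FPKM + 1, adjusted p = 0.00198 by limma). It was called in 18 of 18 alternatives, as were Ciart and Bhlhe41 in that comparison. Noct, which encodes a rhythmic phosphatase, rose by 0.28 in KO-labelled mice (SE 0.081, adjusted p = 0.0247 by limma), a call lost without the second KO-labelled home cage or the third KO-labelled exploration library and with only the groups compared. Averaged over the labels Arntl2, a paralog of Arntl, fell by 0.49 (SE 0.13, adjusted p = 0.0143 by limma), and Gsk3b, a kinase gene, by 0.23 (SE 0.077, adjusted p = 0.0404). The Gsk3b call held in 5 of 17 alternatives, and that of Arntl2 in 14 of 16, not without the second home cage library of either label.

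**Figure D4:**
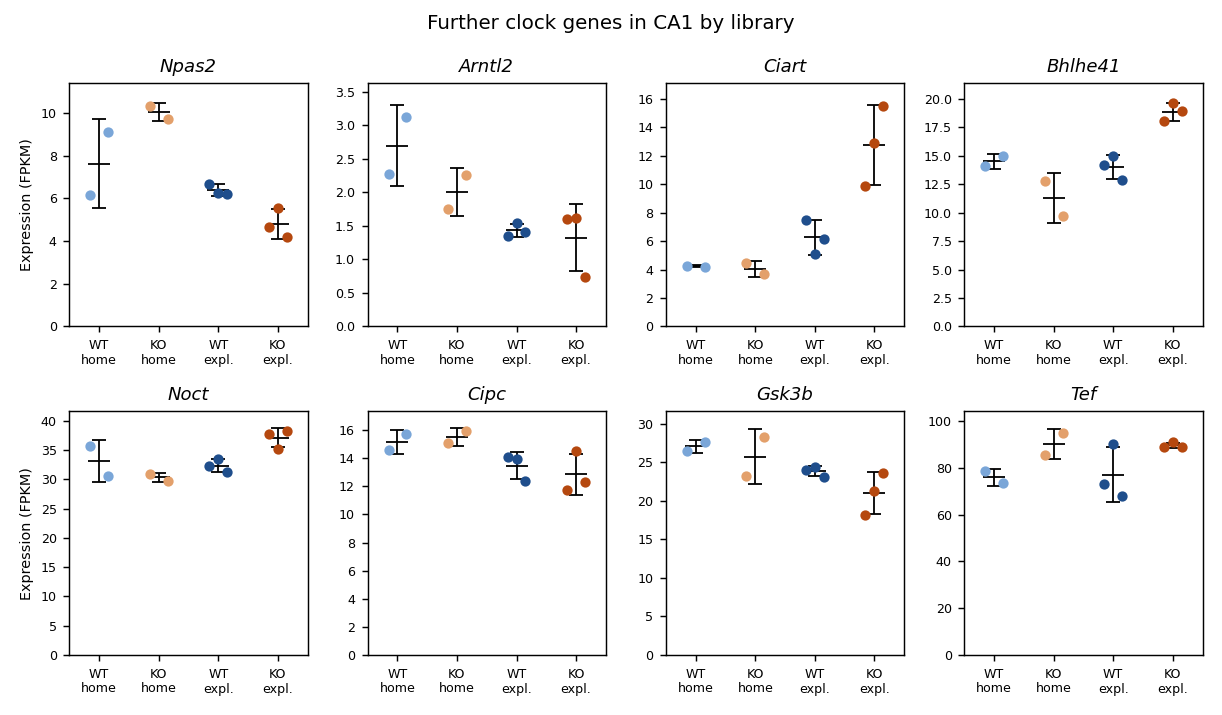
Expression of 8 further clock genes in FPKM on linear axes from 0; points are libraries, and bars are the mean and SD (n = 2 for home cage, n = 3 for exploration). Ciart, from 9.85 to 15.49 FPKM, and Bhlhe41, from 18.04 to 19.64 FPKM, are highest in the KO-labelled exploration libraries, where Npas2, from 4.21 to 5.57 FPKM, is lowest. The share of all tested genes with such a rank of these libraries was not computed.

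Some markers of cell types were called in these comparisons. Of all tested genes 28.6% were called for exploration in KO-labelled mice, 6.31% in WT-labelled mice and 31.9% averaged over the labels. Between the labels the shares were 0.597% after exploration, 3.57% in the home cage and 2.13% averaged over environments, and 0.875% for the difference in response. With so few markers per list, counts near these shares do not set a list apart. With exploration in KO-labelled mice, where Dbp, Nr1d2, Cry1 and Arntl were called, 1 CA1 pyramidal marker of 6 rose and 4 fell, and 2 of the 3 tested CA2 and CA3 markers rose. Their sums were 670.6 to 734.7 FPKM and 101.2 to 105.0 FPKM in the home cage against 640.8 to 780.1 FPKM and 129.8 to 168.2 FPKM after exploration. In the same mice no astrocyte, oligodendrocyte, microglial or endothelial marker was called, and 1 of 6 interneuron, 1 of 2 tested choroid plexus and 1 of 4 tested blood markers rose. With exploration in WT-labelled mice, where Per3 was called, 2 of 5 astrocyte, 3 of 5 oligodendrocyte, 3 of 5 microglial and 3 of 4 tested blood markers rose, as did 1 of 6 interneuron markers. The oligodendrocyte markers summed to 126.8 to 151.5 FPKM in the home cage and to 182.0 to 345.1 FPKM after exploration in these mice, and the astrocyte markers to 57.99 to 64.03 and 69.09 to 88.87 FPKM. Between the labels after exploration, where Nr1d2 was called, 1 CA1 marker of 6 fell and no marker of the other types was called, the astrocyte markers summing to 69.09 to 88.87 FPKM in WT-labelled and 89.15 to 100.7 FPKM in KO-labelled libraries. Between the labels in the home cage, where no clock gene was called, 2 of 5 astrocyte, 1 of 5 microglial and 1 of 4 tested endothelial markers were higher in KO-labelled libraries, 1 CA1 marker was higher and 1 lower, and 1 of 2 tested choroid plexus markers was lower. Averaged over the environments 2 of 5 astrocyte markers were higher, and no marker of the other types was called. In the difference in response 1 of 3 tested CA2 and CA3 markers was called, and none of the other types. Averaged over the labels 1 CA1 marker rose and 4 fell, and 1 CA2 and CA3, 2 interneuron, 2 astrocyte, 4 oligodendrocyte, 3 microglial and 4 blood markers rose. Choroid plexus markers summed to 17.81 and 234.6 FPKM in the 2 WT-labelled home cage libraries. No marker was at 0 in all libraries, and the part of these markers in the results on clock genes was not tested. In tissue of many cells, a change in the number of cells of a type and a change in RNA per cell cannot be told apart.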

How the data were processed

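RNA from laser-dissected CA1 was sequenced on a BGISEQ-500 as paired reads of 100 bp, per the labels' protocols. The authors deposited FPKM values, in which fragments are scaled to transcript length and library depth. The submitters' processing notes name HISAT, StringTie, GATK, Bowtie2, RSEM, GRCm38 and mm10, with no role given. Strand use and whether the 2 blocks of the table were normalized together are not given in the sources used here. The exploration block (19156 genes) and the home cage block (18257 genes) were joined on gene ID, giving 17986 genes. Of 16 labelled samples 10 were used, and the 6 whose source is the learning condition were not analysed here.

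FPKM are not counts, so limma 3.58.1 (R 4.3.3) was fitted to log2(FPKM + 1), which understates changes of low genes, with a variance trend. Folds were taken from these differences and are ratios of FPKM + 1. Genes needed at least 1 FPKM in at least 2 libraries (11892 genes). All 10 libraries were fitted with 1 mean per group (6 residual and 5.71 prior degrees of freedom), in 7 comparisons, each adjusted by Benjamini-Hochberg at 0.05. The script was tested on simulated data. Depth was estimated from the steps of values between 0.08 and 0.6 FPKM, with an offset of 100 nt on transcript length; counting errors follow from it and cover counting alone. Libraries were of separate animals, per the series' design, with 2 or 3 animals per group. The p-values rest on the spread between animals within groups, pooled over all groups and moderated by the prior, not on the compared groups alone.

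The members and lists were chosen with earlier results of these data known. The 10 members were always named. Of the other clock genes, up to 3 called rises and 3 called falls per comparison were named. Fos, Arc, Fkbp5, Sgk1 and Neil3 were named for context, as were the 5 genes most correlated with Dbp and Arntl. Marker lists covered CA1 pyramidal, CA2 and CA3, dentate granule, interneuron, astrocyte, oligodendrocyte, microglial, endothelial, choroid plexus and blood cells. Over the 10 libraries interneuron markers summed to between 172.6 and 287.4 FPKM and endothelial markers to between 19.02 and 29.94 FPKM. The alternatives changed the pseudocount to 0.1, the filter to none or to 5 FPKM, the scaling to median-of-ratios factors or quantiles, or the fit (constant prior variance, robust empirical Bayes, the compared groups alone), or dropped each library in turn.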

Additional observations from a re-analysis of the deposited data

Results flagged for a closer look

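The response of Nr1d2 to exploration differed between the genotype labels by a test of the difference itself. The difference was 0.7173 on the log2 scale (limma, adjusted p = 0.0496). Every KO-labelled exploration library was above every KO-labelled home cage library, and the WT-labelled groups overlapped. Of all tested genes 52.1% did not overlap between the KO-labelled groups, and 0.875% were called for the difference in response. The response of Bhlhe41 differed in the same way, by 0.7549 on the log2 scale (limma, adjusted p = 0.0496). Both adjusted p-values were just inside the threshold, and the calls held in 6 and 5 of 17 alternatives.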

How the results depend on the processing

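Of 1554 values of named genes under alternatives, 1411 kept their direction and side of the threshold, 98 lost and 14 gained a call, 31 changed sign with no call on either side, and 0 reversed a call. Most of these values were of genes and comparisons not called with the main settings, which had no call to lose. The number of members called after exploration between the labels was 0 instead of 1 with no filter, and 0 to 1 on leaving out a library. For exploration in WT-labelled mice it was 0 instead of 1 with no filter, 0 at 5 FPKM (Per3 was then not tested), 2 with only the groups compared, and 0 to 2 on leaving out a library. For the difference in response it was 0 instead of 1 with a pseudocount of 0.1, with no filter and with no variance trend, and 0 to 2 on leaving out a library. Leaving out a library gave 0 to 1 between the labels in the home cage, 0 to 0 averaged over environments, 1 to 5 for exploration in KO-labelled mice and 2 to 7 averaged over the labels, where 4 and 5 were called with all libraries. The lowest counts, 1 (Nr1d2) and 2 (Arntl and Dbp), both came without the second KO-labelled home cage library, and without it a lone library is assumed to vary like the other groups. The share of all tested genes called ranged from 0.110% to 4.95% between the labels in the home cage, from 0.0556% to 0.941% after exploration, from 0.236% to 3.59% averaged, from 0.709% to 14.2% and from 4.27% to 30.5% for exploration in WT-labelled and KO-labelled mice, from 16.2% to 35.8% averaged, and from 0.00% to 3.68% for the difference in response. Of the calls between labels averaged over environments 36.4% were higher in KO-labelled mice, and 50.4% with quantile normalization. Median-of-ratios scaling moved the share of calls that were higher from 42.0% to 50.4% for exploration in KO-labelled mice and from 39.7% to 49.2% averaged over the labels. No alternative was added after the data were seen, and the causes of these changes were not tested. No paired analysis was possible because replicate numbers were given in accession order and the labels tie no library of one group to a library of another. Groups of 2 and 3 libraries limit the precision, and depth adds a counting error of at most 10% for Ciart, the highest of the clock genes examined for it.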
